A study of Papio anubis with 25 samples.

Results

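The 8 genes described here are JCHAIN, PIGR, MZB1, POU2AF1, TNFRSF17, DERL3, CCL28 and CCR10, which belong to the secretion of immunoglobulin A (IgA) and to plasma cells. They were taken by symbol from the 21287 genes of the deposited expression table, each symbol matched 1 gene, and all 8 were among the 14991 genes tested. The libraries are bulk RNA from 5 olive baboons (Papio anubis), 4 female (baboons 1 to 4) and 1 male (baboon 5), and neither a genetic change nor a treatment is given. Each animal gave 1 library from each of 5 flash-frozen tissues, namely parotid gland, submandibular gland, sublingual gland, pancreas and liver, so each tissue has 5 libraries and the 25 libraries are paired within animals. The series was built around the amylase genes of primates, and it contrasts salivary glands with pancreas and pancreas with liver. Values are in TPM, the share of a library's transcripts that come from a gene, corrected for transcript length, so levels of different genes can be compared within a library. The number of reads behind a library is unknown, and the precision of every value rests on the spread over the 5 animals.

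IgA is the main antibody of saliva and other secretions. Plasma cells that lie between the secretory units of the glands make it as a dimer held together by the joining chain, and the epithelium carries it to the lumen on the polymeric immunoglobulin receptor, part of which stays on the antibody as the secretory component. The plasma cells reach mucosal tissue and glands along the chemokine CCL28, which epithelium secretes and which binds the receptor CCR10. Among the 8 genes, JCHAIN encodes the joining chain and PIGR the epithelial receptor. MZB1, an endoplasmic reticulum (ER) chaperone of B-lineage cells, and DERL3, a part of ER-associated protein degradation, serve the secretory pathway. POU2AF1 is a transcriptional coactivator of B-lineage cells and TNFRSF17 is BCMA, a survival receptor of plasma cells.

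Libraries of a tissue correlated least in the sublingual gland (Pearson r of log2(TPM + 1) from 0.665 to 0.897) and most in pancreas and liver (0.916 to 0.975). Summed hepatocyte markers reached 41541 to 69564 TPM in liver and at most 1033 TPM elsewhere, and summed pancreatic acinar markers 158178 to 195631 TPM in pancreas and at most 3736 TPM elsewhere. Salivary acinar and duct markers separated the glands less well. Their sum was 1133 to 4449 TPM in liver and 3368 to 6081 TPM in pancreas, and the libraries of baboon 2 were the lowest of each gland, at 2032 TPM in parotid, 2245 TPM in submandibular and 1552 TPM in sublingual. Some gland libraries held much RNA of other tissue: skeletal muscle markers summed to 95766 TPM in the sublingual library of baboon 2, adipocyte markers to 22555 TPM in the parotid library of baboon 2 and to 7084 TPM in the submandibular library of baboon 5, and oral mucosa markers to 110386 TPM in the sublingual library of baboon 1 and 48159 TPM in that of baboon 4. The parotid library of baboon 5 stood apart by lymphocyte genes, with 1515 TPM of summed B cell markers against 2.88 to 131 TPM in the other parotid libraries. That sum was 7.74 to 145 TPM in submandibular, 10.97 to 98.4 TPM in sublingual, 15.96 to 35.8 TPM in pancreas and 30.4 to 45.8 TPM in liver, and 7 of its 12 genes, MS4A1 and CD79A among them, were listed at 0 in at least 1 pancreas library. Results are given below with and without the parotid libraries of baboons 2 and 5, the submandibular library of baboon 5 and the sublingual library of baboon 2 where that changes them. These 4 set-apart libraries are not all those with much other tissue or few salivary transcripts. The submandibular library of baboon 2, with 2867 TPM of adipocyte markers, and the sublingual libraries of baboons 1 and 4 stayed in. The submandibular library of baboon 5 held 47586 TPM of salivary markers. In these bulk libraries fewer cells of a type and less RNA per cell cannot be told apart.

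The genes were compared between tissues with limma on log2(TPM + 1), with tissue and animal as terms. A gene passed the test when its Benjamini-Hochberg adjusted p, over all 14991 genes, was under 0.05 and its log2 fold change was 1 or more in either direction. Against pancreas, 4 of the 8 genes passed for the mean of the 3 salivary glands: JCHAIN, PIGR and MZB1 were higher in the glands and DERL3 was lower. The background in that comparison was 6.44% of all tested genes, 3.28% higher and 3.16% lower. The median log2 difference was 1.15 over the 8 genes and 0.43 over all tested genes. By gland, 4 of 8 passed for sublingual (9.47% of all genes), 2 of 8 for submandibular (4.08%) and 0 of 8 for parotid (3.82%). In parotid 4 of the 8, JCHAIN, MZB1, TNFRSF17 and DERL3, had an unadjusted limma p under 0.05, as did 2779 of the 14991 tested genes. Scaling the libraries to a common composition (TMM) moved the median difference of all genes for the glands against pancreas from 0.43 to 0.09, and the higher genes from 50.9% to 36.8% of all that passed.

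Against liver, 1 of 8 passed for the mean of the glands, where 18.2% of all genes did, so the share of these genes was not above the background. It was 1 of 8 for submandibular (16.5%), 1 of 8 for sublingual (15.4%) and 0 of 8 for parotid (13.8%), where 0 of 8 had an unadjusted limma p under 0.05. Between pancreas and liver 1 of 8 passed, against 17.5% of all genes. The median log2 difference of pancreas from liver was -0.73 over the 8 genes and -0.44 over all tested genes. Lower values in pancreas than in liver are to be read against that shift. How many of all genes had ranges without overlap is not given here. Between glands 0 of 8 passed in any of the 3 pairs, where the background was 0.0% for parotid against submandibular, 0.113% for parotid against sublingual and 0.0667% for submandibular against sublingual. At an unadjusted limma p under 0.05 were PIGR in parotid against submandibular, PIGR and CCL28 in parotid against sublingual, and CCL28 in submandibular against sublingual. Comparisons that share the pancreas or the liver are not independent of each other.

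**Figure D1:**
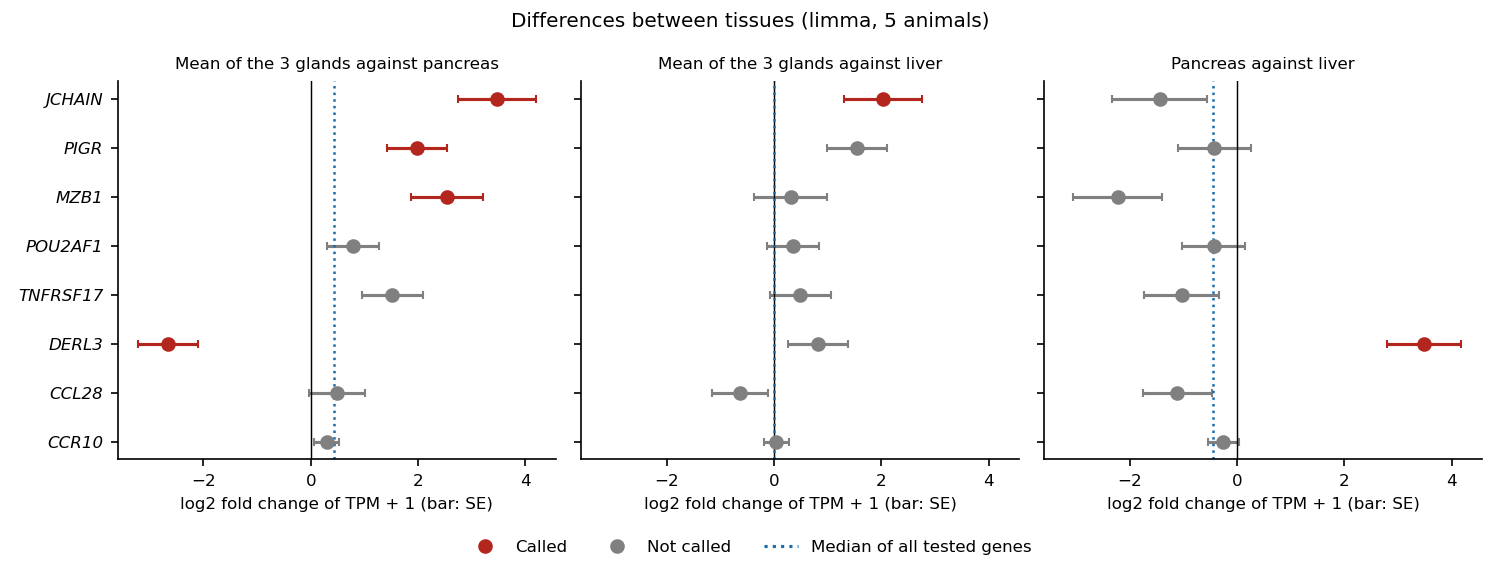
Log2 fold change of TPM + 1 (x axis) of each of the 8 genes in 3 comparisons, with bars of 1 standard error from limma over 5 animals; red points passed the test and the dotted line is the median of all 14991 tested genes. JCHAIN, PIGR and MZB1 lie to the right and DERL3 to the left in the glands against pancreas, and DERL3 lies far to the right in pancreas against liver.

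JCHAIN, the joining chain of dimeric IgA, was the gene with the largest gland to pancreas difference of the 8. It was detected in every library, from 20.3 TPM in the sublingual library of baboon 2 to 8720.0 TPM in that of baboon 5. In the submandibular gland JCHAIN was at 835, 574, 1100.1, 718 and 740.4 TPM in baboons 1 to 5. The submandibular libraries were close together, including that of baboon 2, in which salivary markers were low. In the parotid gland JCHAIN was at 252, 64.7, 1029.8, 60.3 and 2088 TPM, and in the sublingual gland at 634, 20.3, 1725, 93.9 and 8720.0 TPM. In both of these glands baboons 3 and 5 were high and baboons 2 and 4 low. Pancreas held 50.02, 47.1, 25.8, 27.9 and 70.3 TPM of JCHAIN, and liver 95.1, 112, 119.6, 105 and 141 TPM. Every submandibular library lay above every pancreas and liver library, whereas the parotid and sublingual libraries overlapped both.

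Against pancreas, JCHAIN was higher by a log2 fold change of 3.47 ± 0.72 (SE) in the mean of the 3 glands, about 11.1-fold on the TPM + 1 scale (limma, adjusted p = 0.00303, higher in 5 of 5 animals). The difference was 4.20 ± 0.88 in submandibular (limma, adjusted p = 0.00437) and 3.42 ± 0.88 in sublingual (adjusted p = 0.0185). The parotid difference of 2.80 did not pass (limma, adjusted p = 0.0858). Without the sublingual library of baboon 2 it did (adjusted p = 0.0247), since the spread is shared by all tissues, as it did without that of baboon 5 (0.0444) and without all libraries of baboon 2 (3.38, adjusted p = 0.0189). Of the 20 alternatives, the gland mean missed the threshold in 1, without baboon 3 (2.95, limma adjusted p = 0.0602). The sublingual difference missed it without baboon 1 (3.37, 0.109), baboon 3 (2.78, 0.142) or baboon 5 (2.55, limma adjusted p = 0.0802) and in a fit of the compared tissues alone (0.0836). The submandibular call held in all 20 alternatives, with log2 differences of 3.91 to 4.72.

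Against liver, JCHAIN was higher by 2.03 ± 0.72 in the mean of the glands (limma, adjusted p = 0.0482) and by 2.76 ± 0.88 in submandibular (adjusted p = 0.0326). Both calls were near the threshold. The first was lost in 9 of 20 alternatives, among them leaving out baboon 1, 3, 4 or 5 (limma, adjusted p from 0.0626 to 0.212), the parotid library of baboon 5 (0.0626) or the sublingual library of baboon 5 (0.0600). The second was lost without baboon 1, 3 or 4 (limma, adjusted p from 0.101 to 0.141), without the animal block (0.0881) and without the filter on low values (0.0608). With all 4 set-apart libraries left out the gland mean was 2.57 (limma, adjusted p = 0.00209). JCHAIN was lower in pancreas than in liver in 5 of 5 animals with no overlap, by 1.44 on the log2 scale, but did not pass (limma, adjusted p = 0.302). That fit shares its spread with the more variable glands, and in a fit of pancreas and liver alone it did pass (adjusted p = 0.000903).

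PIGR, the epithelial receptor that carries dimeric IgA into the secretion, had a different distribution over the glands. In the sublingual gland PIGR was at 74.9, 1.56, 41.8, 11.8 and 294 TPM in baboons 1 to 5. In the submandibular gland it was at 54.7, 3.67, 10.5, 13.2 and 24.9 TPM. Baboon 2, with the fewest salivary transcripts, was the lowest in both. Parotid held 4.65, 1.69, 6.62, 2.46 and 2.78 TPM of PIGR, pancreas 4.97, 2.15, 1.01, 2.10 and 2.31 TPM, and liver 4.06, 3.73, 2.07, 4.15 and 3.52 TPM. The parotid range overlapped those of pancreas and liver, and the parotid library of baboon 5, with the most B cell transcripts and the second-highest JCHAIN level, was within it.

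PIGR was higher in sublingual than in pancreas by a log2 fold change of 3.26 ± 0.68 (limma, adjusted p = 0.00374) and higher than in liver by 2.83 ± 0.68 (adjusted p = 0.00465), each in 4 of 5 animals. Over the mean of the glands the difference from pancreas was 1.98 ± 0.56 (limma, adjusted p = 0.0309, higher in 5 of 5 animals). This call was lost in 9 of 20 alternatives, including without the animal block (adjusted p = 0.0766), under both scalings of the TPM values (0.0522 and 0.0527) and without baboon 1, 3, 4 or 5 (0.0789 to 0.211). The sublingual call against pancreas was lost without baboon 3 (2.97, limma adjusted p = 0.0503) and in a fit of the compared tissues alone (0.0609), and that against liver in such a fit (0.0815). In submandibular PIGR was 2.29 above pancreas and 1.87 above liver on the log2 scale, and neither passed (limma, adjusted p = 0.0620 and 0.0642). Both passed without the sublingual library of baboon 2 (0.0142 and 0.0202), without that of baboon 5 (0.0149 and 0.0218), without baboon 2 altogether (0.00991 and 0.00854), in fits of the compared tissues alone (0.0352 and 0.0358) and under both scalings (0.0427 and 0.0432 against pancreas, 0.0176 and 0.0170 against liver). Parotid and sublingual differed in PIGR by -2.87 (limma, adjusted p = 0.0951), and by -3.62 without the sublingual library of baboon 2 (adjusted p = 0.00219). With the 4 set-apart libraries and the sublingual library of baboon 5 left out, a choice made after the values were seen, that difference was -2.71 (adjusted p = 0.00744). The gland mean against liver (1.55 ± 0.56) just missed the threshold (limma, adjusted p = 0.0507), and passed without baboon 2 (2.09, 0.00411), the parotid library of baboon 5 (1.65, 0.0358) or the sublingual library of baboon 2 (1.81, 0.00561).

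**Figure D2:**
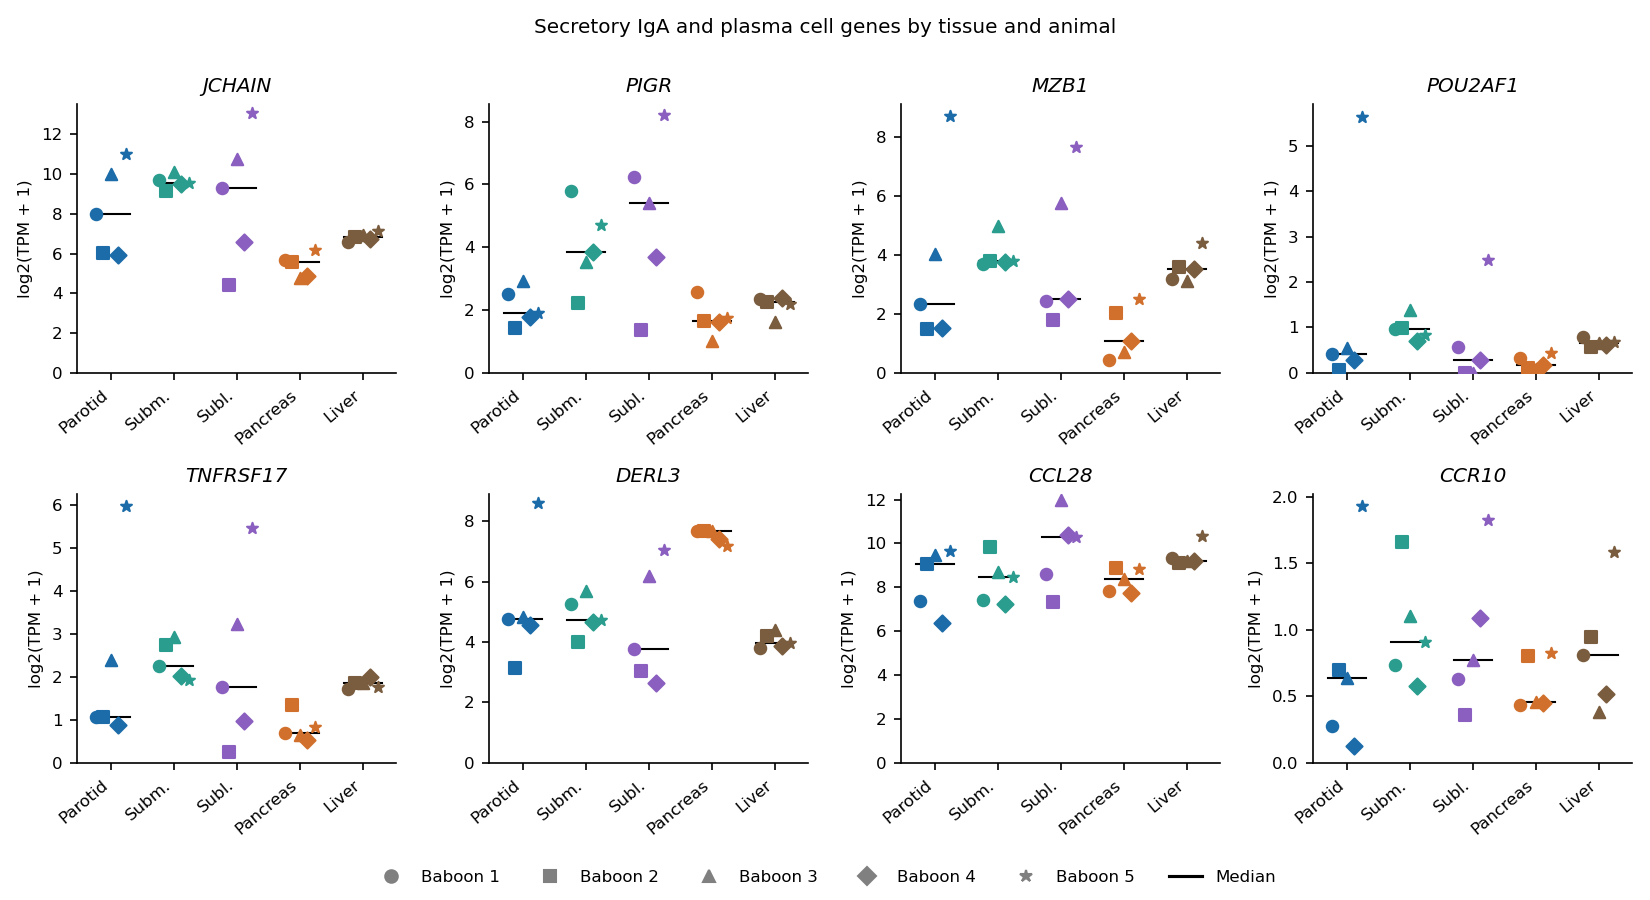
Log2(TPM + 1) of each of the 8 genes (y axis, 1 panel per gene) in parotid, submandibular (Subm.), sublingual (Subl.), pancreas and liver; each symbol is the library of 1 baboon and the line is the median of 5. JCHAIN is tight in submandibular and wide in parotid and sublingual, PIGR is low in parotid, DERL3 is highest in pancreas apart from the parotid library of baboon 5, and CCL28 overlaps between the glands and the other tissues.

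MZB1, the ER chaperone of antibody-secreting cells, was at 11.9, 13.1, 30.6, 12.7 and 12.9 TPM in the submandibular libraries of baboons 1 to 5. In the parotid it was at 4.01, 1.80, 15.5, 1.85 and 421 TPM, and in the sublingual gland at 4.41, 2.43, 53.0, 4.73 and 202 TPM. As for JCHAIN, the submandibular values spread less, with baboon 3 highest, and the parotid and sublingual values were set by baboons 3 and 5. Pancreas held 0.355, 3.08, 0.625, 1.12 and 4.67 TPM of MZB1, and liver 8.17, 11.1, 7.77, 10.6 and 20.3 TPM. Every submandibular and every liver library lay above every pancreas library.

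MZB1 was higher in the glands than in pancreas by 2.54 ± 0.68 on the log2 scale (limma, adjusted p = 0.0227, 5 of 5 animals) and in sublingual by 2.68 ± 0.83 (adjusted p = 0.0440). Without the animal block neither passed (limma, adjusted p = 0.0886 and 0.106). The gland mean was lost without baboon 1 (0.0902), 3 (0.200) or 4 (0.0507). The sublingual call was lost without baboon 1, 3, 4 or 5 (limma, adjusted p from 0.0587 to 0.232) or without the sublingual library of baboon 5 alone (2.20, 0.0953), under both scalings (0.0809 and 0.0801), without the filter on low values (0.0783) and in a fit of the compared tissues alone (0.0764). The submandibular difference of 2.66 did not pass (limma, adjusted p = 0.0807), and did so without baboon 5 (3.00, 0.00680), the parotid library of baboon 5 (0.0193) or the submandibular one (3.39, 0.0163). Glands and liver differed in MZB1 by 0.31 ± 0.68 (limma, adjusted p = 0.793), with a sign that changed without baboon 3, without baboon 5 and without the parotid library of baboon 5. Pancreas was below liver by 2.22 ± 0.83 in 5 of 5 animals (limma, adjusted p = 0.0673). This difference passed without the parotid library of baboon 5 (0.0206), its submandibular library (0.0433) or all libraries of baboon 5 (0.0143).

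TNFRSF17, the BCMA receptor that carries survival signals to plasma cells, was at 3.79, 5.72, 6.63, 3.03 and 2.79 TPM in submandibular libraries of baboons 1 to 5. It was at 1.09, 1.09, 4.28, 0.845 and 61.5 TPM in parotid and at 2.36, 0.192, 8.32, 0.974 and 42.8 TPM in sublingual. The highest library of both glands was again that of baboon 5, followed by baboon 3. Liver was narrow, at 2.26 to 2.97 TPM, and pancreas was at 0.449 to 1.55 TPM, below every submandibular and every liver library. The gland mean exceeded pancreas by 1.52 ± 0.57 (log2, 5 of 5 animals) and did not pass (limma, adjusted p = 0.113). It did without the sublingual library of baboon 2 (1.69, 0.0445), and with all 4 set-apart libraries left out (1.66, 0.0125). In the gene table TNFRSF17 overlaps SNX29, and whether the quantification used strand is not given in the sources used here.

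POU2AF1, the B-lineage coactivator, was the lowest of the 8 genes beside CCR10. In the parotid it was at 0.337, 0.0418, 0.464, 0.207 and 48.8 TPM in baboons 1 to 5. In the sublingual gland it was listed at 0 in baboons 2 and 3 and was at 0.472, 0.214 and 4.59 TPM in baboons 1, 4 and 5. The zero in baboon 3 stood in a library with 1725 TPM of JCHAIN and 53.0 TPM of MZB1. Submandibular libraries held 0.635 to 1.61 TPM, liver 0.492 to 0.722 TPM and pancreas 0.0554 to 0.342 TPM. Submandibular and liver thus each lay above pancreas with no overlap. The POU2AF1 difference of pancreas from liver was -0.44 ± 0.59 (log2, limma adjusted p = 0.693), and the median of all tested genes was also -0.44. No comparison of POU2AF1 passed the test. The gland to pancreas difference was 0.79 ± 0.48 (log2, limma adjusted p = 0.286) and that to liver 0.35 ± 0.48 (adjusted p = 0.664), which changed sign without baboon 5.

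DERL3, which retrotranslocates misfolded proteins from the ER, ran against the other plasma cell genes: its level was highest in the pancreas, a tissue of protein-secreting acinar cells. Pancreas held 206, 205, 203, 170.3 and 146 TPM of DERL3 in baboons 1 to 5. Liver held 12.9, 17.3, 19.9, 13.8 and 14.8 TPM. No liver library came near the pancreas. In the submandibular gland DERL3 was at 37.8, 14.9, 51.1, 24.5 and 25.8 TPM. In the sublingual gland it was at 12.8, 7.14, 71.3, 5.21 and 132 TPM, and in the parotid at 26.5, 7.85, 27.4, 22.9 and 390.3 TPM. The single gland library above the pancreas was the parotid of baboon 5.

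The DERL3 level in the glands was below that in pancreas by a log2 fold change of -2.67 ± 0.56, a 6.35-fold difference on the TPM + 1 scale (limma, adjusted p = 0.00322, lower in 5 of 5 animals). By gland it was -2.998 ± 0.68 in sublingual (limma, adjusted p = 0.00764) and -2.66 ± 0.68 in submandibular (adjusted p = 0.0236). In parotid the difference of -2.34 ± 0.68 did not pass (limma, adjusted p = 0.0563), and did without the parotid library of baboon 5 (-3.08, 0.00272), without the sublingual library of baboon 2 (0.0473) or of baboon 5 (0.0435), or without all libraries of baboon 5 (-3.28, 0.000641). The gland mean passed in all 20 alternatives (-3.23 to -2.26). The submandibular call was lost without baboon 1, 2, 3 or 4 (limma, adjusted p from 0.0809 to 0.116), without the submandibular library of baboon 5 (0.0971) or without the animal block (0.0553). The sublingual call was lost without baboon 1 or 4 (limma, adjusted p = 0.0838 and 0.0798) and in a fit of the compared tissues alone (0.0520).

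DERL3 exceeded liver in pancreas by 3.48 ± 0.68, or 11.2-fold (limma, adjusted p = 0.000505, 5 of 5 animals), also in all 20 alternatives (3.38 to 4.18). Glands and liver differed by 0.82 ± 0.56 and did not pass (limma, adjusted p = 0.341). In the gene table DERL3 overlaps SMARCB1. Of 12 tested ER genes, a list of translocation, folding and stress factors, 0 were higher and 2 lower in the glands than in pancreas (3.28% and 3.16% of all genes). The 2 were FKBP11, an ER prolyl isomerase (-2.25, limma adjusted p = 0.000696), and SSR4, a translocon-associated subunit (-1.79, 0.00364). The list's median was -0.46 against 0.43 for all genes.

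CCL28, the chemokine that attracts CCR10-bearing IgA plasma cells, was among the more abundant of the 8 genes in every tissue, and its tissue levels overlapped. In the sublingual gland it was at 392, 161, 4025, 1327 and 1273 TPM in baboons 1 to 5. Parotid ranged from 81.2 to 813 TPM, submandibular from 148 to 911 TPM and pancreas from 212 to 478 TPM. Liver held 649.8, 555, 584, 594 and 1312 TPM, above every pancreas library. The gland mean differed from pancreas by 0.48 ± 0.52 (log2, limma adjusted p = 0.526), a sign that turned under both scalings, and from liver by -0.63 ± 0.52 (adjusted p = 0.442). Pancreas was lower than liver in 5 of 5 animals by 1.12 ± 0.64 (limma, adjusted p = 0.266), which passed in a fit of these tissues alone (0.00391). Sublingual exceeded pancreas by 2.14 without the sublingual library of baboon 2 (limma, adjusted p = 0.00869) and by 2.13 without baboon 2 (0.0124), and did not pass with it. The 5 named genes most like CCL28 over the 25 libraries (PPP1R42, GCC2, TRIM52, SRSF11 and DDX55, r from 0.954 to 0.970) included neither a chemokine nor an epithelial secretory gene. In the gene table CCL28 overlaps a non-coding gene, LOC116274893, for which the deposited table gave no value. Whether the CCL28 values come from the mRNA of the chemokine alone was not tested.

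CCR10, the receptor of CCL28 on IgA plasma cells, stayed at or below 2.81 TPM in all 25 libraries. Its ranges were 0.0911 to 2.81 TPM in parotid, 0.494 to 2.15 TPM in submandibular, 0.282 to 2.54 TPM in sublingual, 0.353 to 0.772 TPM in pancreas and 0.305 to 2.00 TPM in liver. The ranges overlapped between all tissues, and no comparison passed. The gland mean differed from pancreas by 0.30 ± 0.23 (log2, limma adjusted p = 0.389) and from liver by 0.04 ± 0.23 (adjusted p = 0.930). Baboon 5 had the highest CCR10 value of parotid, sublingual, pancreas and liver, and baboon 2 that of submandibular. The named gene most like CCR10 over the libraries was DDX3Y (r = 0.828), a Y-linked gene that was nevertheless not listed at 0 in any library, those of the 4 females included.

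Ordered by mean log2(TPM + 1), JCHAIN and TNFRSF17 ran from submandibular over sublingual, parotid and liver down to pancreas. MZB1 had sublingual first and submandibular second, and then the same sequence. PIGR ran from sublingual over submandibular, liver and parotid to pancreas, and DERL3 from pancreas over parotid, submandibular and sublingual to liver. Neighbours in the order did not differ by the test for any of the 8 genes. The smallest adjusted p of such a step was 0.0563, for DERL3 from pancreas to parotid.

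Deviations of the plasma cell genes from their tissue means, pooled over the 5 tissues, moved together. Over the 25 libraries, as deviations from the tissue means, MZB1 correlated with TNFRSF17 at r = 0.95, with DERL3 at 0.90 and with JCHAIN at 0.85. These are descriptions over libraries that share animals, tissues and a fixed library total. Without the parotid and sublingual libraries of baboon 5 (23 libraries, left out after the values were seen) the same correlations were 0.84, 0.67 and 0.79, so that they did not rest on those libraries alone. For POU2AF1 they did: its correlation with MZB1 was 0.83 with and 0.19 without them, and with TNFRSF17 0.86 and 0.25.

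DERL3 belonged to this group only in the pooled deviations from the tissue means. Parotid and sublingual weigh most there, as MZB1 spread most in them (SD of log2 values 3.04 and 2.55, against 0.510 to 0.882 elsewhere). In pancreas DERL3 was highest where MZB1 was lowest (206 and 0.355 TPM, baboon 1). It was lowest where MZB1 was highest (146 and 4.67 TPM, baboon 5). In liver the library with the highest MZB1 (20.3 TPM) had 14.8 TPM of DERL3, inside a range of 12.9 to 19.9. The correlation of DERL3 with MZB1 over the undivided libraries was 0.19. Pancreas libraries combined high DERL3 with low MZB1. The ratio of DERL3 to MZB1 was 31.2 to 581 in pancreas libraries and 0.654 to 12.4 in the other 4 tissues. By the likeness over libraries the named genes nearest to DERL3 were TENT5C (r = 0.901) and GCA (0.889), and within tissues they were GCA (0.927) and HSH2D (0.912), followed by TNFRSF17 (0.908).

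**Figure D3:**
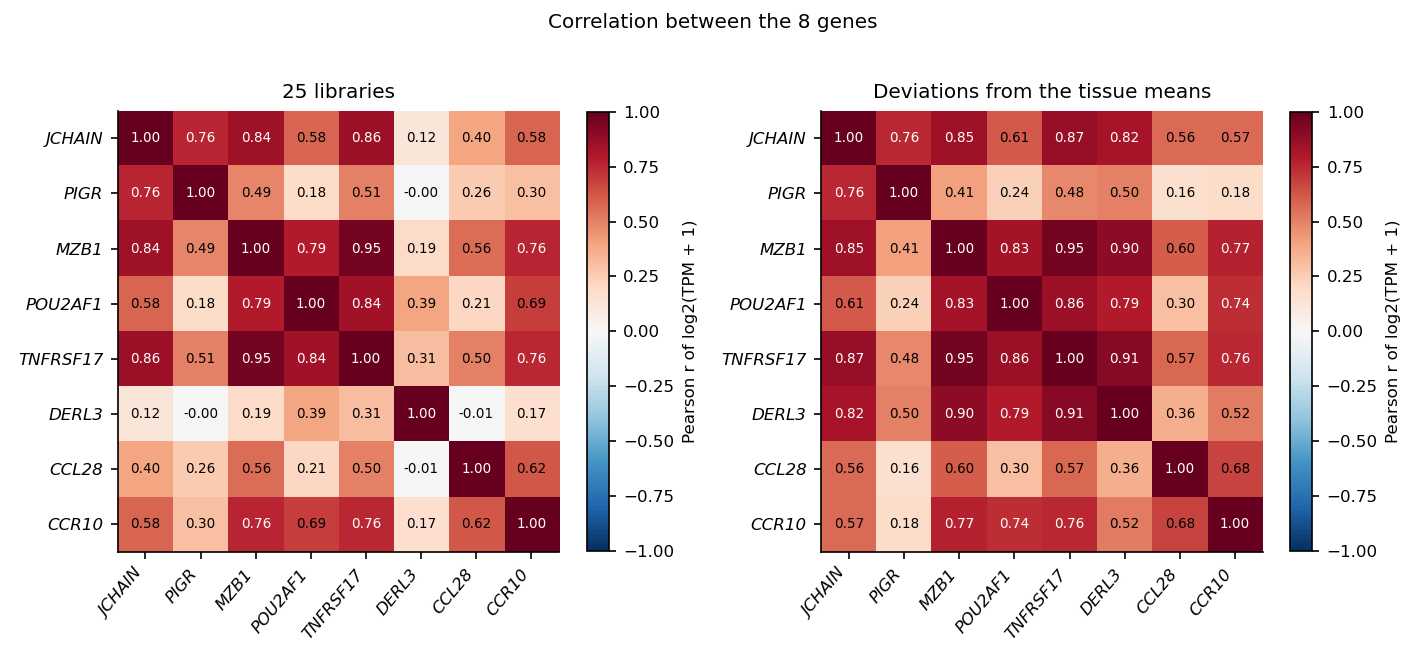
Pearson r of log2(TPM + 1) between each pair of the 8 genes over 25 libraries, from the values (left) and from deviations from the tissue means (right). DERL3 with MZB1 goes from 0.19 on the left to 0.90 on the right, and PIGR with JCHAIN is 0.76 in both.

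PIGR was tied to JCHAIN (r = 0.76 over the libraries and 0.76 within tissues, 0.74 without the 2 libraries of baboon 5) more than to MZB1 (0.49 and 0.41). The named genes most like PIGR were of epithelium: TMC5 (r = 0.939), CAPN9 (0.916), ERN2 (0.901), an ER stress sensor of mucous epithelium, MUC7 (0.898), a salivary mucin, and CHRM1 (0.873), a muscarinic receptor. MUC7 had medians of 2790 TPM in submandibular, 1014 TPM in sublingual and 141 TPM in parotid. For MZB1 and TNFRSF17 the most alike were lymphocyte genes, among them CD79A (r = 0.925 and 0.942), a B cell receptor subunit, BTLA (0.894 and 0.947) and IRF4 (0.887 and 0.939), a plasma cell transcription factor. POU2AF1 was most like FCRL2 (0.974), a B cell surface protein, and ODF1 (0.957) was also among its 5 most alike named genes. Baboon 5's parotid held 48.8 TPM of POU2AF1, and no other library exceeded 4.59 TPM. FCRL2 had a parotid maximum of 6.88 TPM and a parotid median of 0.0865 TPM. Whether these likenesses hold without baboon 5's parotid was not tested. For JCHAIN the named gene most like it was ATP2A3 (0.902), a calcium pump of the ER, with medians of 27.4 TPM in submandibular and 4.68 TPM in pancreas.

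The ratio of JCHAIN to PIGR had medians of 54.2 in parotid, 54.2 in submandibular, 13.0 in sublingual, 21.9 in pancreas and 30.1 in liver. Its highest value was 752, in the parotid library of baboon 5, and its lowest was 7.99, in the sublingual library of baboon 4. The parotid library of baboon 5 and the sublingual library of baboon 5 thus differed in PIGR (2.78 and 294 TPM) far more than in JCHAIN.

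**Figure D4:**
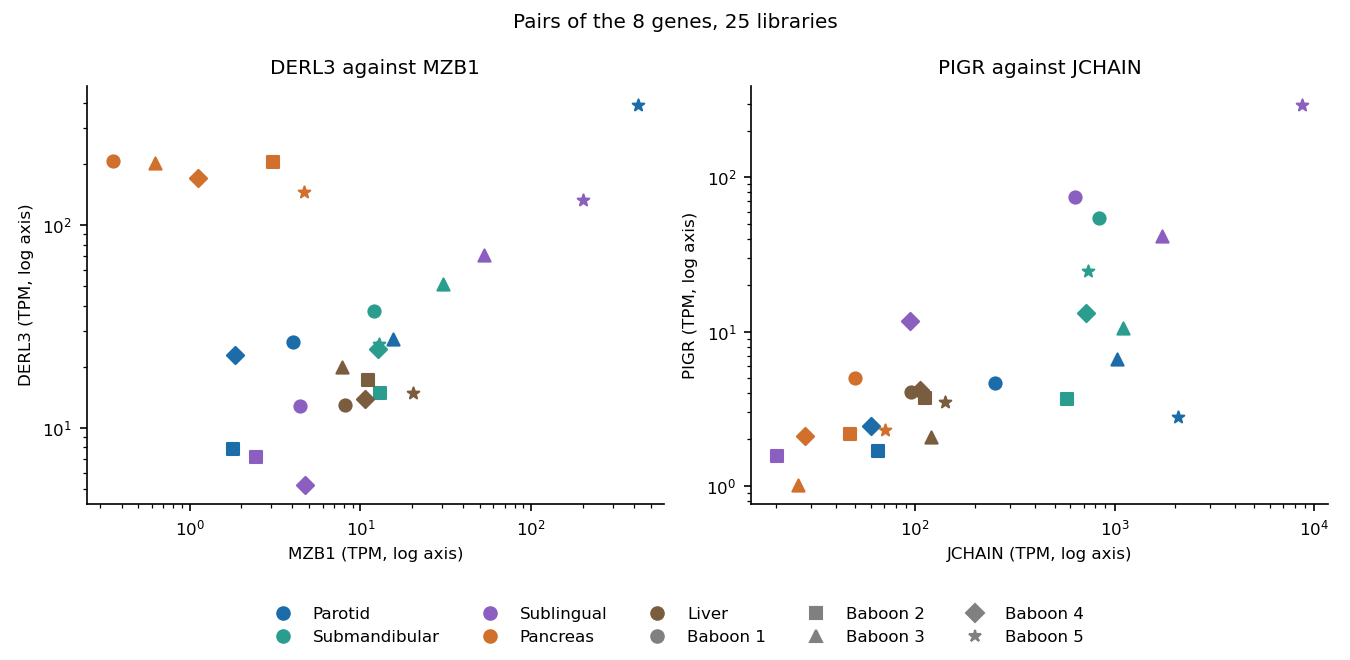
TPM of DERL3 against MZB1 (left) and of PIGR against JCHAIN (right), both axes logarithmic; each symbol is 1 of 25 libraries, coloured by tissue and shaped by baboon. The 5 pancreas libraries stand apart at high DERL3 and low MZB1, and the parotid library of baboon 5 has 2088 TPM of JCHAIN with 2.78 TPM of PIGR.

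JCHAIN was then set beside the antigen receptor genes, which include those of antibodies. No immunoglobulin gene carries its own symbol in the table. The gene table, however, marks 212 of the genes as antigen receptor constant regions (13) or variable segments (199), without saying which receptor or isotype, and these were used after the values were seen. The 212 are not antibody genes alone. Constant regions LOC101017262, LOC100999905 and LOC101002206 correlated with the T cell gene CD3E at r = 0.967, 0.945 and 0.917, and with JCHAIN at 0.572, 0.560 and 0.575. In the same stretches of the assembly lie 28 variable segments (between DAD1 and SALL2) and 36 (between EPHB6 and PRSS58). The counts and shares for the 212 were not split by receptor. Of the 14991 tested genes, the one most like JCHAIN over the libraries was the constant-region gene LOC101013467 (r = 0.970), and 39 of the 50 genes most like JCHAIN were antigen receptor genes, of which 158 were tested in all. The same count was 46 for MZB1, 43 for TNFRSF17, 22 for POU2AF1, 15 for CCR10, 1 for DERL3 and 0 for PIGR and CCL28.

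The 2 most abundant constant-region genes had different distributions. LOC101013467, which is unplaced in the assembly, had medians of 1156 TPM in submandibular, 345 TPM in sublingual, 152 TPM in parotid, 117 TPM in liver and 44.1 TPM in pancreas. LOC101024463 lies beside TMEM121, a neighbour of the heavy-chain constant genes in human, and its median was 704 TPM in liver, 358 TPM in parotid, 246 TPM in sublingual, 208 TPM in submandibular and 51.6 TPM in pancreas. The ratio of the first to the second was 1.41 to 15.0 in the submandibular gland and 0.107 to 0.596 in the liver, with no overlap. The ratio of JCHAIN to LOC101013467 stayed between 0.319 and 1.84 in all 25 libraries. That of JCHAIN to LOC101024463 ran from 0.0309 to 39.7. These ratios are descriptions, and reads of near-identical copies may have been divided between such genes.

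**Figure D5:**
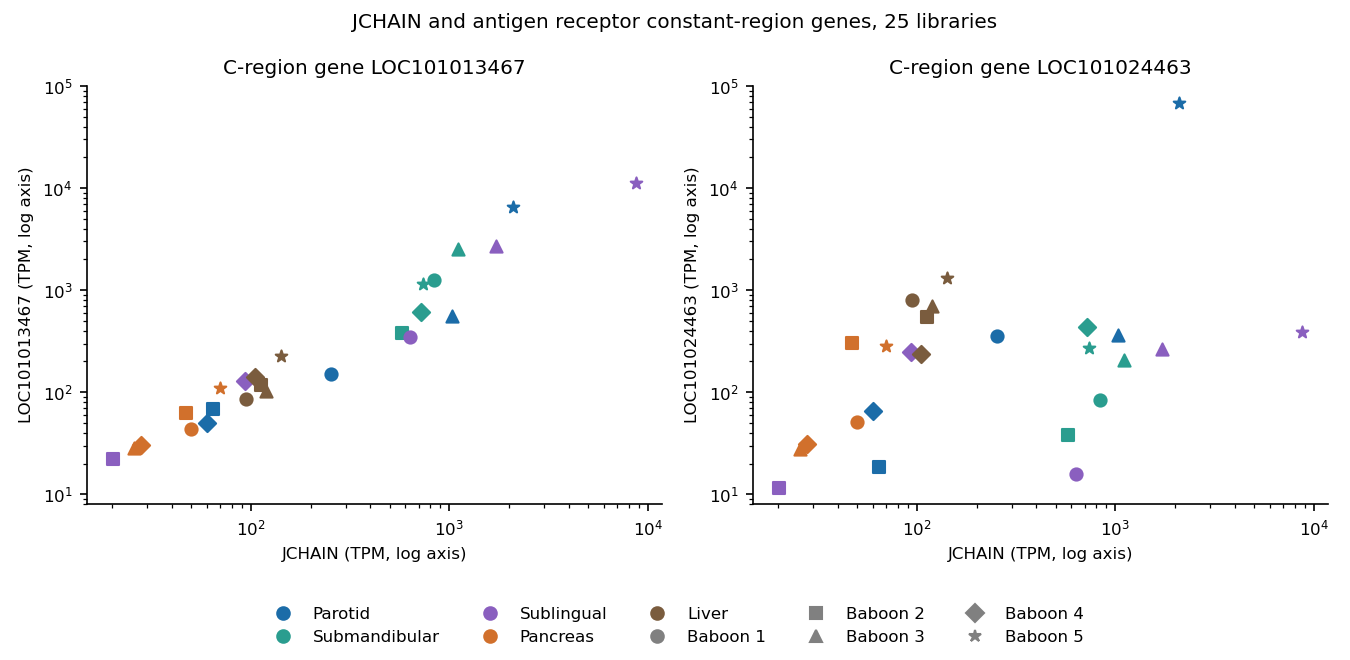
TPM of the constant-region genes LOC101013467 (left) and LOC101024463 (right) against TPM of JCHAIN, all axes logarithmic; each symbol is 1 of 25 libraries, coloured by tissue and shaped by baboon. LOC101013467 follows JCHAIN over the whole range (r = 0.970), and LOC101024463 does so less (r = 0.42), with the parotid library of baboon 5 at 67497 TPM.

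The parotid and sublingual libraries of baboon 5, the highest for most of the 8 genes, differed in kind. In the parotid library the 212 antigen receptor genes made up 19.6% of all transcripts, and LOC101024463 alone 67497 TPM, with 6551 TPM of LOC101013467. In the sublingual library they made up 3.69%, with 389 TPM of LOC101024463 and 11275 TPM of LOC101013467. In the other 23 libraries the share was 0.0129% to 0.807%. The parotid library had the highest MZB1, TNFRSF17, POU2AF1, DERL3 and CCR10 of all libraries, B cell markers of 1515 TPM and T cell markers of 788 TPM in sum. The sublingual library had the highest JCHAIN and PIGR, with B cell markers of 98.4 TPM and T cell markers of 48.7 TPM. It also had the highest sum of salivary acinar and duct markers of all libraries, 281535 TPM against 4743 TPM in the parotid library. JCHAIN was 4.96 times MZB1 in the parotid library, against 32.6 to 66.4 times in the other parotid libraries, and 43.1 times in the sublingual one. In liver this ratio was 6.97 to 15.4. The part of lymphocytes other than plasma cells in these levels was not tested.

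Of 16 tested genes of a plasma cell list (transcription factors, surface proteins and secretory genes), 0 passed in either direction for the glands against pancreas by limma. Their median log2 difference was 0.89, against 0.43 for all genes. IRF4, a transcription factor of plasma cells, was at 1.16 (limma, adjusted p = 0.103), and XBP1, the transcription factor of the secretory programme, was at -1.41 (adjusted p = 0.0920). At an unadjusted limma p under 0.05 there were 8 of the 16 and 3711 of the 14991 tested genes. Against liver, where 18.2% of all genes passed, 1 of the 16 was higher and 1 lower, a share not above that background. ITM2C was higher in the glands (1.71, limma adjusted p = 0.0282), and SDC1, the plasma cell surface protein CD138 that hepatocytes and other epithelia also make, was lower (-2.33, adjusted p = 0.0186). The list's summed level was 111 to 284 TPM in submandibular and 117 to 303 TPM in pancreas, and these sums overlapped.

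Among 13 tested genes of IgA cell homing and survival, 1 was higher in the glands than in pancreas and 0 lower. That is near the 6.44% of all genes that passed there. The higher gene was TNFSF13 (APRIL), the ligand of the receptor that TNFRSF17 encodes, by 1.74 ± 0.45 (log2, limma adjusted p = 0.0191, 5 of 5 animals). Its medians were 26.6 TPM in parotid, 20.2 TPM in submandibular, 12.4 TPM in sublingual, 34.8 TPM in liver and 4.35 TPM in pancreas. Pancreas was also lower than liver in TNFSF13, by 2.52 on the log2 scale (limma, adjusted p = 0.00172). TNFSF13B (BAFF), the related ligand, was at -0.35 for the glands against pancreas (limma, adjusted p = 0.586). Of 10 other genes of mucosal chemokines and chemokine receptors 2 were higher in the glands than in pancreas (3.28% of all genes). They were CCL19, a chemokine of lymphoid tissue (2.50, limma adjusted p = 0.0272), and CXCL14, a chemokine of epithelium (2.48, 0.00827). CCL19 reached 1213 TPM in the parotid library of baboon 5, the one with the most B cell transcripts, against a parotid median of 19.9 TPM. The part of those cells in the CCL19 difference was not tested.

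Among 15 tested genes of IgA receptors and epithelial transport, 0 passed for the glands against pancreas (4 at an unadjusted limma p under 0.05, beside the 3711 of 14991 genes) and 3 against liver. The 3 of 15 are near the 18.2% of all genes that passed against liver. RAB3D, a secretory granule GTPase (1.499, limma adjusted p = 0.0121), and RAB25, a recycling endosome GTPase of epithelium (2.06, 0.00738), were higher in the glands. RAB17, a GTPase of transcytosis, was lower (-3.10, limma adjusted p = 0.000174). Of the general epithelial, B cell and T cell lists (10, 12 and 9 tested genes) 0 genes passed for the glands against pancreas, with 6, 3 and 5 at an unadjusted limma p under 0.05, to be read against the same 3711 of 14991. The summed epithelial list was low in the parotid library of baboon 2 (25.2 TPM), the sublingual library of baboon 2 (19.1 TPM) and the parotid library of baboon 5 (39.5 TPM), where PIGR was at 1.69, 1.56 and 2.78 TPM. The other parotid libraries, with epithelial sums of 157 to 366 TPM, had 2.46 to 6.62 TPM of PIGR. In other tissues the epithelial sum and PIGR did not always run together. The sublingual library of baboon 4 had the highest sum of all, 1549 TPM, with 11.8 TPM of PIGR. That of baboon 5 had a sum of 706 TPM with 294 TPM of PIGR. Pancreas libraries had sums of 214 to 286 TPM with 1.01 to 4.97 TPM of PIGR. The part of the epithelial share in the PIGR level was not tested.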

How the data were processed

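RNA of 25 libraries, 5 tissues of 5 baboons, was measured. The values deposited by the authors are TPM per gene, made with kallisto per the submitters' processing notes. Its version, the index, build and annotation, and the use of strand are not given in the sources used here. Library sums ran from 999999.5 to 1000001.0 TPM, so TPM keeps no depth and no counting interval is given. All 21287 gene IDs matched the RefSeq gene table of Panubis1.0, which was used only for names, biotypes, overlaps and neighbours.

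Tissue and animal come from the labels. In 14991 genes the mean reached 1 TPM in some tissue. Their log2(TPM + 1) values entered a limma model (version 3.58.1, R 4.3.3, moderated variances with a trend) with tissue and animal as terms, with 12 contrasts and Benjamini-Hochberg adjustment over genes. The code was tested on simulated data. Libraries of the same number were taken as the same animal from the labels. Deviations from the tissue means correlated at a mean r of 0.161 over 50 same-animal pairs and -0.035 over 200 other pairs. Taking deviations from the tissue means ties these values to each other, so they are a description and do not prove the pairing. Tables and figures were made with Python 3.11.15, pandas 2.3.3, numpy 2.4.6 and matplotlib 3.10.9.

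The 8 genes and the marker lists were chosen with earlier results of these data known. From each list up to 4 genes are named, first those called for the glands against pancreas by size of change, then those of highest mean TPM; others named were chosen after their values were seen. Like genes are the 5 with the highest r whose symbol is not a LOC number. A planned search for immunoglobulin genes by description was replaced by biotype, as the gene table holds no descriptions. Alternatives were no animal block, fits of the compared tissues alone, TMM and median-of-ratios scaling, other filters and a pseudocount of 0.1 TPM, no minimum fold change, and leaving out animals or single libraries.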

Additional observations from a re-analysis of the deposited data

Results flagged for a closer look

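In 14 of the 40 groups of 5 libraries (8 genes in 5 tissues) the highest library lay apart from the other 4, with a gap over 0.71 of the group's range. That is Dixon's 95% value for 5 samples, which chance exceeds in about 5% of groups of normal values. The ratio was taken on TPM, not on log values, and the groups share libraries. The 14 therefore cannot be set against that rate. Of the 14, 12 were libraries of baboon 5. In the parotid they were MZB1 (421 TPM), POU2AF1 (48.8 TPM), TNFRSF17 (61.5 TPM), DERL3 (390.3 TPM) and CCR10 (2.81 TPM). In the sublingual gland of baboon 5 they were JCHAIN (8720.0 TPM), PIGR (294 TPM), MZB1 (202 TPM), POU2AF1 (4.59 TPM) and TNFRSF17 (42.8 TPM). In liver of baboon 5 they were MZB1 (20.3 TPM) and CCL28 (1312 TPM). The others were MZB1 in the submandibular gland of baboon 3 (30.6 TPM) and TNFRSF17 in the pancreas of baboon 2 (1.55 TPM).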

How the results depend on the processing

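Of 41 differences of single genes, 34 kept their direction in every alternative that gave a value (20, or 19 for CCR10, which the filter at 5 TPM removes). The others were near 0 and reversed: for the glands against pancreas CCL28 (-0.00296 with TMM scaling, -0.017 with median-of-ratios scaling); for the glands against liver MZB1 (-0.059 without replicate 3, -0.19 without replicate 5, -0.000919 without the parotid library of baboon 5; -0.19 to 0.70 over all leave-outs), POU2AF1 (-0.14 to 0.50, negative without replicate 5, and -0.075 without the 4 set-apart libraries and sublingual 5), TNFRSF17 (-0.057 to 0.79, negative without replicate 5) and CCR10 (-0.064 to 0.12, negative without replicate 3, and -0.023 without parotid 5); and for pancreas against liver PIGR (0.063 and 0.093) and CCR10 (0.0095 and 0.024) with TMM and median-of-ratios scaling. DERL3 passed for pancreas against the glands and against liver in all 20. Not every alternative could have changed a direction. Leaving out the animal block, fitting the compared tissues alone and changing the filter leave the log2 fold change of a gene as it is. Dropping the minimum fold change does so too, and it can lose no call. The causes of the other changes were not tested.

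Without the replicate block (the animal) the number of the 8 genes called was 1 against 2 for submandibular against pancreas, 2 against 4 for the glands against pancreas, and 0 against 1 for submandibular and for the glands against liver; in the other comparisons it stayed within 1.5 times. Over all genes the same comparisons gave 527 against 611, 753 against 966, 2160 against 2474 and 2440 against 2727. In fits of the compared tissues alone the number of the 8 genes called was 5 for submandibular against pancreas, 0 for sublingual against pancreas, 2 for submandibular against liver, 0 for sublingual and for the glands against liver, and 5 for pancreas against liver. Each scaling gave 1 for parotid and 4 for submandibular against pancreas, and 2 for submandibular and 2 for the glands against liver. More of all genes passed too under TMM scaling: 1246 for parotid and 1320 for submandibular against pancreas (572 and 611 in the main fit). Against liver it was 3032 for submandibular and 3083 for the glands (2474 and 2727). Median-of-ratios scaling gave 1255, 1314, 3014 and 3088. For fits of the compared tissues alone and the alternatives that follow, the number over all genes is not given here. Without the filter the number of the 8 genes called was 0 for submandibular and for the glands against liver. With at least 5 TPM it was 1 for parotid against pancreas and 2 for the glands against liver. With a pseudocount of 0.1 it was 1 for parotid and 4 for submandibular against pancreas, 2 for the glands against liver and 2 for pancreas against liver. Leaving out the 4 set-apart libraries gave 2 for parotid and 5 for submandibular against pancreas, 2 for submandibular, sublingual, the glands and pancreas against liver each, 2 for parotid against sublingual and 1 for submandibular against sublingual; leaving out sublingual 5 as well, a setting added after the data were seen, gave the same counts except 3 for pancreas against liver.

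Leaving out 1 animal or 1 library gave ranges, against pancreas, of 0 to 2 for parotid, 1 to 4 for submandibular, 1 to 6 for sublingual and 1 to 5 for the glands; against liver, of 0 to 3 for submandibular, 1 to 2 for sublingual, 0 to 2 for the glands and 1 to 2 for pancreas; and of 0 to 2 for parotid and 0 to 1 for submandibular against sublingual. Depth is unknown, so low values such as those of CCR10 and POU2AF1 carry an unstated counting error.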
